A study of Mus musculus with 96 samples.

Results

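The genes described here are Dbp, Tef, Hlf, Nfil3, Bhlhe40 and Bhlhe41, transcription factors on the output side of the circadian clock. They were chosen by name, with earlier results of these data known. All 6 were found among the 55335 genes of a raw count table through their Ensembl identifiers. The table holds 96 RNA libraries from nuclei of mouse visual cortex, 48 from sorted VIP nuclei and 48 from total nuclei. The mice came from 3 lines, in which the floxed alleles are Igf1-E1 fl/fl (E1), Igf1-E23 fl/fl (E23) or Igf1-E123 fl/fl (E123), enhancers of the Igf1 gene. Every animal also carried VIP flp/wt, which supplies the Flp recombinase in cells that use the Vip gene, and was injected into the visual cortex at 55 to 60 days of age with one of 2 adeno-associated viruses. Both viruses used the Syn1 promoter and the Flp-dependent fDIO design to make mScarlet-KASH, a red tag of the nuclear envelope, joined by a 2a peptide to Cre or to dCre. The sample titles call the dCre animals controls. Housing in the dark began 3 days after injection and lasted 10 to 12 days, and tissue was taken in the dark or after 1 h of light. Line, virus and housing gave 12 conditions in each fraction, with 3 to 5 libraries in each of the 24 groups, each library made from 50 to 100 nuclei.

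Floxed alleles and Flp were shared by dCre and Cre animals alike, so no group is a wild-type mouse. Loss of the enhancers was not measured here, and in total nuclei the virus is designed to act only in the small share of cells with Flp. The labels used here give no time of day at harvest, and its part in any difference below was not tested. In bulk samples of this kind, fewer cells of a type and less RNA per cell cannot be told apart.

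The circadian clock is a loop in which CLOCK and BMAL1 activate genes through a DNA element called the E-box, and the PER and CRY proteins they induce shut them off. DBP, TEF and HLF are closely related bZIP activators that carry the rhythm onward by binding the D-box, and NFIL3 is a bZIP repressor that competes for that element. BHLHE40 and BHLHE41, also known as DEC1 and DEC2, are repressors that bind E-boxes, and Bhlhe40 and Nfil3 are in addition known as genes that cells switch on quickly after stimulation.

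In mm10 coordinates of GENCODE M21, Dbp (ENSMUSG00000059824) lies at chr7:45705088-45710203 on the plus strand, Tef (ENSMUSG00000022389) at chr15:81802421-81826863 on the plus strand and Hlf (ENSMUSG00000003949) at chr11:90336536-90390895 on the minus strand. Nfil3 (ENSMUSG00000056749) lies at chr13:52967209-52981073 on the minus strand, Bhlhe40 (ENSMUSG00000030103) at chr6:108660629-108666925 on the plus strand and Bhlhe41 (ENSMUSG00000030256) at chr6:145858243-145865558 on the minus strand. All 6 are protein-coding. An opposite-strand gene overlaps Dbp (Sphk2), Tef (Gm17597), Bhlhe40 (0610040F04Rik) and Bhlhe41 (Gm43909), and none overlaps Hlf or Nfil3. The library kit does not mark strand, so reads of such a pair cannot be told apart where the genes overlap.

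Promoter windows from RefSeq (GRCm38.p6), each from 250 bases before to 50 bases after an annotated start, were found for 5 of the 6 genes. Their 6 windows were searched on both strands for the E-box CACGTG, for the D-box as TTATGTAA or TTACGTAA, and for the cAMP response element TGACGTCA, the site of the activity-regulated factor CREB. The 3 stretches below are shown because they hold the element by which a clock or activity factor is known to act. They read 5′ to 3′ on the strand of the gene, and capitals mark the element.
Bhlhe41 (chr6:145865559-145865670, minus strand): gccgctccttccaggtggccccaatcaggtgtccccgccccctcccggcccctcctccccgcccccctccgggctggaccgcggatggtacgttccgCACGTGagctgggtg
Tef, second start (chr15:81811204-81811353, plus strand): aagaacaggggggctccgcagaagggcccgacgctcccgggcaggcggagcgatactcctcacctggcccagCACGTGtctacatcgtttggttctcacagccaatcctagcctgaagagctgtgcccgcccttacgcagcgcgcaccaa
Hlf (chr11:90390918-90391067, minus strand): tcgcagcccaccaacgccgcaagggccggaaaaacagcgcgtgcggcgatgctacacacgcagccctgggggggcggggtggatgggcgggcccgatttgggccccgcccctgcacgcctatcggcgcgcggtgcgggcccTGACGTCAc
The E-box began 153 bases before the start of Bhlhe41 and 138 bases before the second start of Tef. A further E-box lay 127 bases before the first start of Tef, inside a GENCODE exon of that gene. The cAMP response element of Hlf began 9 bases before its start. Neither D-box spelling was found in the 6 windows, and the windows of Dbp and Nfil3 held none of the 4 motifs. Among all 32851 promoter windows of the same length, 7.15% held CACGTG, 1.79% held TGACGTCA, 0.938% held TTATGTAA and 0.119% held TTACGTAA. A match describes letters in the window and is no evidence of binding.

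The libraries held 1559883 to 9122515 counts. All 8 VIP interneuron markers and all 7 GABAergic markers examined were higher in VIP than in total nuclei, and all 12 excitatory, 10 microglial and 11 oligodendrocyte lineage markers were lower, as were 3 of 10 astrocyte markers. Of 10 endothelial and mural markers, 2 were higher in VIP nuclei (Pdgfrb and Rgs5) and none was lower, and their summed level was 1.23 to 894 CPM (median 11.3) in VIP and 0.416 to 125 CPM (median 3.52) in total nuclei. A set of 4 animals stood apart: in the dark dCre replicates 1 and 2 of E1 and of E123, long genes were high relative to short genes. Their length index, the mean log2(CPM + 1) of genes over 100000 bases minus that of genes under 10000 bases, was 4.23 to 4.32 in VIP nuclei against 1.74 to 3.47 in the other 44 libraries, and 3.89 to 4.29 against 1.93 to 3.33 in total nuclei. For the index, CPM was taken on library totals without TMM, over expressed autosomal protein-coding genes. Elsewhere CPM (counts per TMM-scaled library size) is the level used. In 2 libraries, the VIP and total libraries of E123 dCre dark replicate 2, genes of the sex chromosomes went against the sex label. Light and virus calls of the 6 genes are also given without the 4 animals, and with a covariate for the length index where that ended them.

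Per kilobase of exon, Tef had the highest level of the 6 genes in both fractions, at 10.6 ± 2.85 CPM per kb in VIP nuclei and 13.7 ± 3.30 in total nuclei (mean ± SD, n = 48 each). Bhlhe41 followed at 5.39 ± 2.10 in VIP and 8.46 ± 2.90 in total nuclei. In VIP nuclei the next 4 genes lay within a SD of each other, with Dbp at 3.53 ± 2.21, Bhlhe40 at 2.62 ± 2.01, Nfil3 at 2.61 ± 2.63 and Hlf at 2.4 ± 2.03 CPM per kb. In total nuclei Bhlhe40 (7.45 ± 4.14), Hlf (7.25 ± 2.58) and Dbp (6.37 ± 3.03) were again within a SD of each other and of Bhlhe41, and Nfil3 was lowest at 3.04 ± 2.34. Nuclear RNA contains introns, and whether intronic reads were counted is not given in the sources used here, so this order holds for counts divided by exon length only. The median count per library ran from 20.5 for Nfil3 in VIP nuclei to 529 for Tef in total nuclei.

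Of the 6 genes, 5 were lower in VIP than in total nuclei, and none was higher. The comparison averaged the 12 conditions in 1 fit of all 96 libraries, and 35.5% of the 22926 genes tested passed an adjusted p of 0.05 by edgeR's quasi-likelihood test. Genes called lower were 20.7% of all those tested. The median log2 difference was -0.85 over the 6 genes and -0.11 over all genes tested. Without the 4 dark dCre animals the same count of 5 passed, where 6914 genes were called in either direction against 8140 with all libraries. The log2 differences of the 5 were then -1.86 for Hlf, -1.55 for Bhlhe40, -1.14 for Dbp, -0.69 for Bhlhe41 and -0.40 for Tef. The markers of excitatory neurons, microglia and oligodendrocytes were lower too and the called endothelial and mural markers higher, and their part in the difference was not tested.

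**Figure D1:**
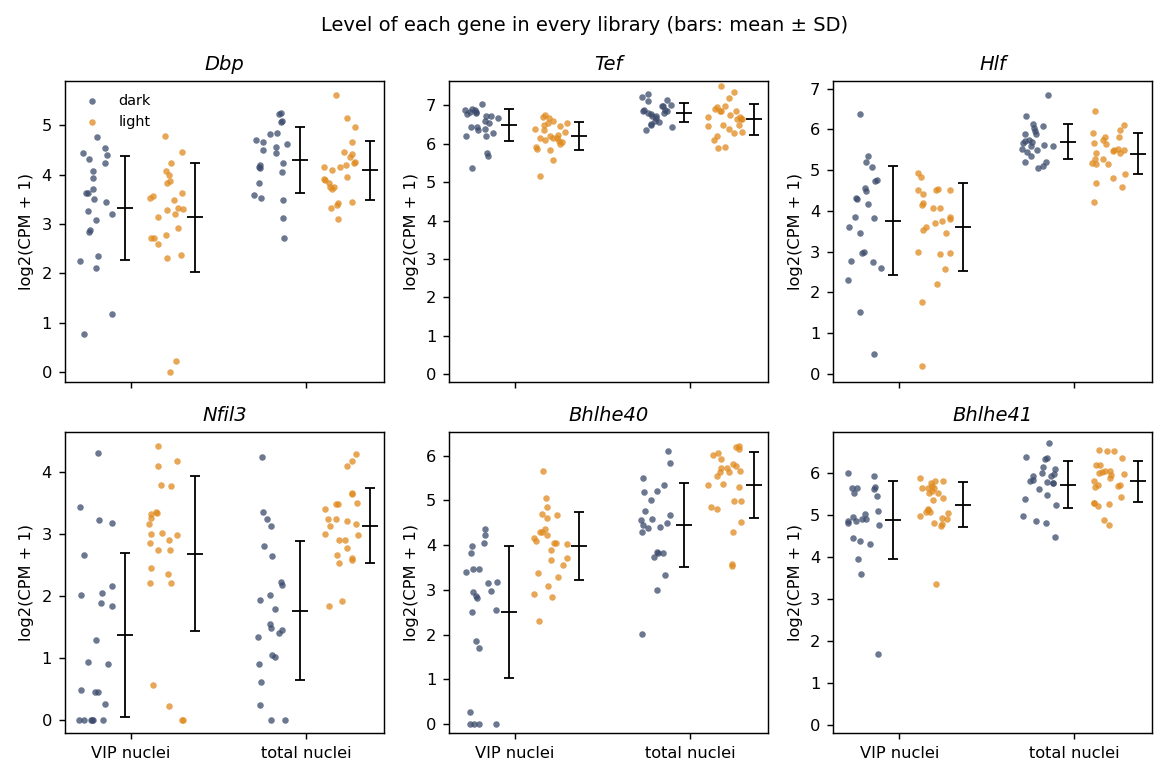
Level of each of the 6 genes in every library, as log2(CPM + 1) on the vertical axis, for 48 VIP and 48 total libraries split into dark and light. Points are libraries and bars are the mean ± SD. Hlf and Bhlhe40 have lower medians in VIP nuclei. The light points of Bhlhe40 and Nfil3 have higher medians than the dark points in both fractions, and the ranges overlap.

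Among the D-box activators, Hlf showed the largest difference. Its level was 0.143 to 82.2 CPM (median 13.3) in VIP nuclei and 17.5 to 115 CPM (median 46.2) in total nuclei. The ranges overlapped, and Hlf was lower in the VIP library of 47 of 48 same-numbered pairs of VIP and total libraries. The fitted difference was -1.85 ± 0.16 log2 (SE), 3.60-fold lower in VIP nuclei, with an adjusted p of 4.3e-18. The difference was also tested within each condition. In E1 mice, 3.11% (dCre dark), 1.87% (dCre light), 5.3% (Cre dark) and 3.56% (Cre light) of genes were called lower in VIP nuclei. In E23 mice the shares were 1.72%, 2.88%, 3.7% and 3.25% in that order, and in E123 mice 0.179%, 0.694%, 0.576% and 0.589%. Hlf was negative in 12 of 12 conditions, at -4.16 to -0.60 log2, and passed in 6, of which none was in E123 mice. In E1 dCre dark, its largest difference, leaving out replicates 1 and 2 keeps 1 library in each fraction, whose spread is then taken from the other groups. There Hlf was at -3.92 against -4.16 with all libraries, with an adjusted p of 0.11.

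Dbp, the clock output gene with the strongest rhythm in many tissues, ranged from 0 to 26.5 CPM (median 9.46) in VIP and from 5.56 to 48.2 CPM (median 17.0) in total nuclei. The ranges overlapped, with the VIP library lower in 39 of 48 pairs. The fitted difference was -1.01 ± 0.18 log2, 2.01-fold lower, with an adjusted p of 1.6e-06. It passed in 1 condition, E1 dCre dark, where the VIP libraries were at 3.32, 1.26 and 0.711 CPM and the total libraries at 16.7, 15.7 and 27.9 CPM. These groups did not overlap, 2 of the 3 animals are among the 4 that stand apart, and with replicate 3 alone on each side, the spread coming from the other groups, the difference was -5.27 against -3.47 with all 3, with an adjusted p of 0.064.

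Tef, the most abundant of the 3 activators, differed least. Its level was 34.7 to 130 CPM (median 82.9) in VIP and 58.6 to 182 CPM (median 106) in total nuclei, a fitted difference of -0.38 ± 0.08 log2 with an adjusted p of 1.9e-05. The ranges overlapped widely, and the VIP library was lower in 38 of 48 pairs. Tef passed in 1 condition, E23 Cre light, at -0.93 ± 0.26 log2.

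Nfil3, the D-box repressor, was not called. It ranged from 0 to 20.3 CPM (median 3.89) in VIP and from 0 to 18.5 CPM (median 5.57) in total nuclei. The ranges nearly coincided, the VIP library was lower in 25 of 48 pairs, and the fitted difference was -0.33 ± 0.34 log2 with a 95% interval of -0.99 to 0.34. At 0 counts stood 8 VIP and 2 total libraries, where a count of 0 allows up to 0.473 to 1.19 CPM by 3 counts of the library, counting error only.

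Of the E-box repressors, Bhlhe40 was at 0 to 49.8 CPM (median 10.4) in VIP and 3.06 to 73.3 CPM (median 31.0) in total nuclei. It was lower in the VIP library of 45 of 48 pairs although the ranges overlapped. The fitted difference was -1.58 ± 0.20 log2, 3.00-fold lower, with an adjusted p of 1.0e-10. It was negative in 12 of 12 conditions and passed in 3, all of them dark: E1 dCre, E23 dCre and E23 Cre. With no filter on low counts the differences were -2.71 in E1 dCre and -2.36 in E23 dCre, against -2.64 and -2.35, and the adjusted p was 0.096 and 0.085. The E1 dCre call was also lost without the libraries against the sex label (-2.62, adjusted p 0.051), and with replicate 3 alone on each side the difference was -1.72 with an adjusted p of 0.73.

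Bhlhe41, its close relative, ranged from 2.21 to 63.1 CPM (median 33) in VIP and from 21.2 to 105 CPM (median 56.0) in total nuclei. The ranges overlapped, with the VIP library lower in 42 of 48 pairs. The fitted difference was -0.69 ± 0.11 log2, 1.61-fold lower, with an adjusted p of 4.1e-08. It was negative in 12 of 12 conditions and passed in E1 dCre dark only, at -1.42 ± 0.43 log2, where with replicate 3 alone on each side it was -1.03 with an adjusted p of 0.70.

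**Figure D2:**
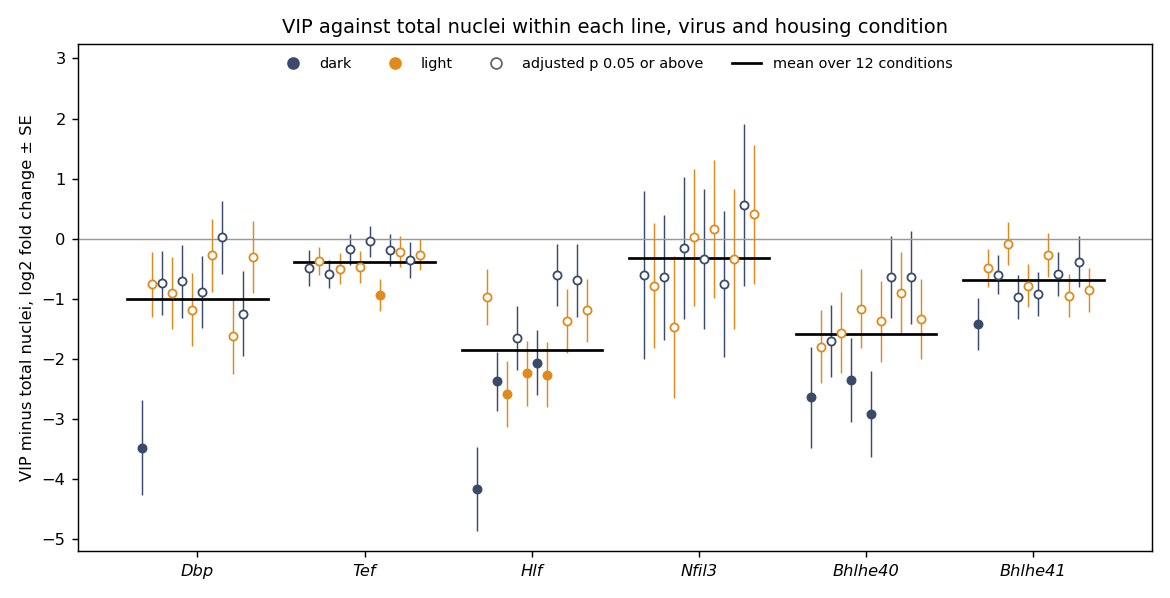
Log2 fold change of VIP against total nuclei (vertical axis, ± SE) of each gene within each of the 12 conditions, coloured by housing. Filled points have an adjusted p under 0.05 and black lines mark the mean over conditions, from -0.33 for Nfil3 to -1.85 for Hlf. All 12 points of Hlf, Tef, Bhlhe40 and Bhlhe41 lie below 0.

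After 1 h of light, Bhlhe40 was called higher in both fractions. Of its calls averaged over lines, only that in total nuclei over both viruses held without the 4 dark dCre animals. The light comparisons averaged the 3 lines within a virus, or all 6 pairs of line and virus, in a separate fit for each fraction. In VIP nuclei of dCre animals it was the 1 member called, where 6.27% of the 20585 genes tested were called. Bhlhe40 was at 0, 6.05 and 17.7 CPM (lowest, median and highest of 11) in the dark and at 3.92, 15.3 and 49.8 CPM in the light (13 libraries). The ranges overlapped. At 0 counts stood 3 of the 11 dark dCre libraries and 1 dark Cre library, where 3 counts of the library would be 0.553 to 1.07 CPM, and no light library was at 0. The log2 difference was 1.86 ± 0.55, with an adjusted p of 0.033. Averaged over both viruses it was 1.45 ± 0.38, 2.74-fold higher, with an adjusted p of 0.015, where 5.99% of genes were called. In VIP nuclei of Cre animals, where 0.35% of genes were called and no member was by edgeR or DESeq2, it was at 0, 8.75 and 19.5 CPM in the dark and at 6.45, 15.8 and 24.3 CPM in the light (12 libraries each). That difference was 1.04 ± 0.53 with an unadjusted p of 0.054 and an adjusted p of 0.55.

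In total nuclei of dCre animals Bhlhe40 was at 3.06, 18.6 and 56.1 CPM in the dark (lowest, median, highest of 11) and at 10.6, 48.8 and 73.3 CPM in the light (13 libraries). The log2 difference was 1.26 ± 0.25 with an adjusted p of 0.0012, where 5.69% of 21213 genes were called. Averaged over both viruses it was 0.97 ± 0.18, 1.965-fold higher, with an adjusted p of 0.00013, where 7.78% were called. In Cre animals alone it went from a median of 23.7 CPM in the dark to 42.9 CPM in the light, a difference of 0.69 ± 0.25 with an adjusted p of 0.18, where 1.49% were called. The difference was positive in 6 of 6 pairs of line and virus in each fraction, from 0.23 to 2.76 log2 in VIP and from 0.09 to 1.87 in total nuclei.

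The light results were recomputed without the 4 dark dCre animals that stand apart. Their total libraries, at 3.06 to 12.2 CPM, were the lowest 4 of the 23 dark total libraries for Bhlhe40, the other 19 being at 13 to 68.0 CPM. Without these animals the call held in total nuclei over both viruses (0.78 log2, adjusted p 0.0099) and was lost in total nuclei of dCre animals (0.88, adjusted p 0.22), in VIP nuclei of dCre animals (1.26, adjusted p 0.55) and in VIP nuclei over both viruses (1.15, adjusted p 0.16). When the index entered the fit as a covariate, the Bhlhe40 call was lost in total nuclei of dCre animals (0.78, adjusted p 0.084), in VIP nuclei of dCre animals (1.35, adjusted p 0.35) and in VIP nuclei over both viruses (1.12, adjusted p 0.12), and held in total nuclei over both viruses (0.67, adjusted p 0.0079). Over all genes, leaving the 4 animals out took the number called from 1290 to 46 for light in VIP dCre nuclei and from 1651 to 757 for light in total nuclei over both viruses. In VIP dCre nuclei, leaving out any 1 of 8 animals also ended the Bhlhe40 call, with adjusted p of 0.051 to 0.080. Leaving out E1 dCre dark replicate 3, the one library of its group with Bhlhe40 counts, moved that fitted value to 3.98, and such a value against a group at 0 is no bound.

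**Figure D3:**
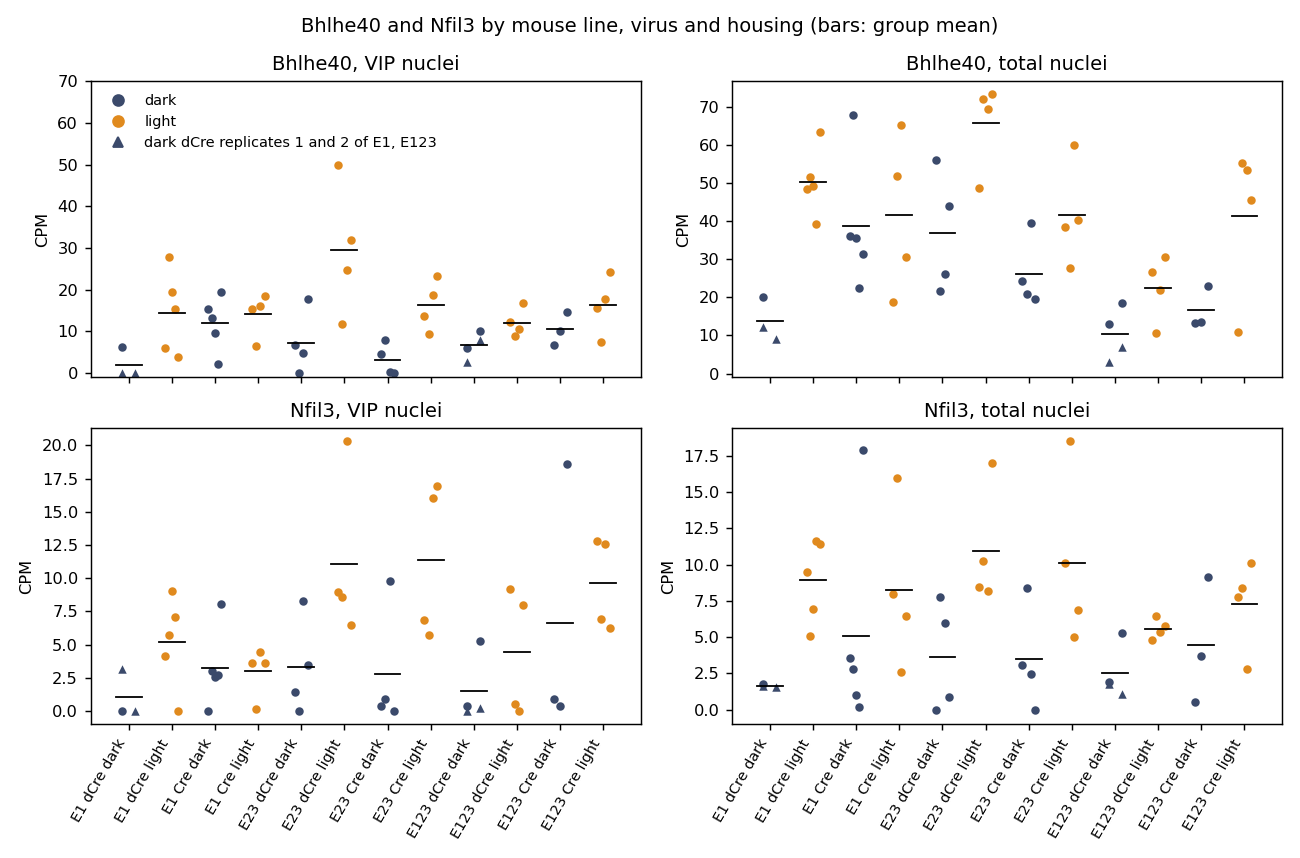
CPM of Bhlhe40 and Nfil3 in each library of the 12 conditions, for VIP and total nuclei. Dots are libraries, triangles are the 4 dark dCre animals that stand apart, and bars are group means. The group mean of Bhlhe40 in total nuclei runs from 10.4 in E123 dCre dark to 65.9 in E23 dCre light.

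Nfil3, induced by growth factors and cytokines in many cells, rose in total nuclei. Over both viruses it was at 0, 1.93 and 17.9 CPM (lowest, median, highest of 23) in the dark and at 2.60, 7.96 and 18.5 CPM in the light (25 libraries), a log2 difference of 1.34 ± 0.38 and 2.53-fold, with an adjusted p of 0.019. The ranges overlapped, and the highest dark library was close to the highest light one. In VIP nuclei the median went from 0.910 CPM in the dark to 6.86 CPM in the light with a difference of 1.34 ± 0.58 and an adjusted p of 0.16. At 0 counts stood 6 of the 23 dark and 2 of the 25 light VIP libraries. With 1 animal left out the VIP difference ran from 1.22 to 2.22 and passed without E1 dCre dark replicate 1 (2.22, adjusted p 0.040), E123 dCre dark replicate 4 (1.81, adjusted p 0.049) or E123 Cre dark replicate 3 (1.91, adjusted p 0.043). By virus, Nfil3 in total nuclei of dCre animals was on either side of the threshold by method: 1.72 ± 0.55 with an adjusted p of 0.0504 by edgeR, and called by DESeq2 (1.72, adjusted p 0.011), by edgeR with no filter on low counts (adjusted p 0.023) and in 11 of 48 fits with 1 animal left out. It stood at 0.96 ± 0.53 in total nuclei of Cre animals. The difference was positive in 6 of 6 pairs of line and virus in total and in 5 of 6 in VIP nuclei. Without the 4 animals it was 1.23 with an adjusted p of 0.16 in total nuclei over both viruses and 1.51 with an adjusted p of 0.50 in total nuclei of dCre animals. In VIP nuclei over both viruses it was then 2.06 with an adjusted p of 0.21, a fitted value that is no bound because the E1 dCre dark library left is at 0, as it is where E1 dCre dark replicate 1 is left out. With the length index as a covariate the call in total nuclei over both viruses was lost (1.11, adjusted p 0.10).

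Bhlhe41 was not called in any light comparison averaged over lines. Over both viruses it went from a median of 28.8 CPM in the dark to 40.2 CPM in the light in VIP nuclei, a log2 difference of 0.37 ± 0.18 (adjusted p 0.22), and from 55.5 to 57.9 CPM in total nuclei, 0.12 ± 0.12 (adjusted p 0.65). The 95% interval of the difference was 0.02 to 0.71 in VIP and -0.12 to 0.36 in total nuclei. Without the 4 animals the difference was 0.17 (adjusted p 0.82) in VIP nuclei and -0.037 in total nuclei. Leaving out E1 dCre dark replicate 3 alone brought Bhlhe41 past the threshold in VIP nuclei of dCre animals (0.94, adjusted p 0.0085). Over both viruses it then passed in VIP nuclei as well (0.56, adjusted p 0.023). The dark E1 dCre libraries left in those fits are of animals that stand apart.

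None of the D-box activators was called higher in the light. Tef went from a median of 95.7 CPM in the dark to 73.0 CPM in the light in VIP nuclei over both viruses, -0.28 ± 0.11 log2 with an unadjusted p of 0.018 and an adjusted p of 0.13. In total nuclei it was at medians of 110 and 100.0 CPM, -0.13 ± 0.10 log2 with an adjusted p of 0.52. Dbp differed by 0.12 ± 0.32 log2 in VIP and by -0.23 ± 0.18 in total nuclei, and neither passed. Its mean CPM in VIP nuclei was lower in the light (9.84 ± 6.18 against 11.4 ± 7.10) although the fitted mean of the log differences was above 0, since E1 dCre nuclei went up by 2.53 log2 and E123 dCre nuclei were 1.47 lower.

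Hlf fell in total nuclei of dCre animals. It was at 35.7, 58.4 and 115 CPM in the dark (lowest, median, highest of 11) and at 17.5, 37.4 and 86.2 CPM in the light (13 libraries). The ranges overlapped, and the log2 difference was -0.58 ± 0.18, 1.5-fold lower, with an adjusted p of 0.044. The call was close to the threshold: leaving out any 1 of 13 animals ended it, and without the 4 dark dCre animals the difference was -0.44 with an adjusted p of 0.49. A length index covariate (-0.39, adjusted p 0.42) or scaling by library totals alone (-0.53, adjusted p 0.080) ended it too. In Cre animals Hlf differed by 0.06 ± 0.18 log2, and over both viruses by -0.26 ± 0.13 with an adjusted p of 0.22. In VIP nuclei over both viruses it differed by -0.10 ± 0.29.

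**Figure D4:**
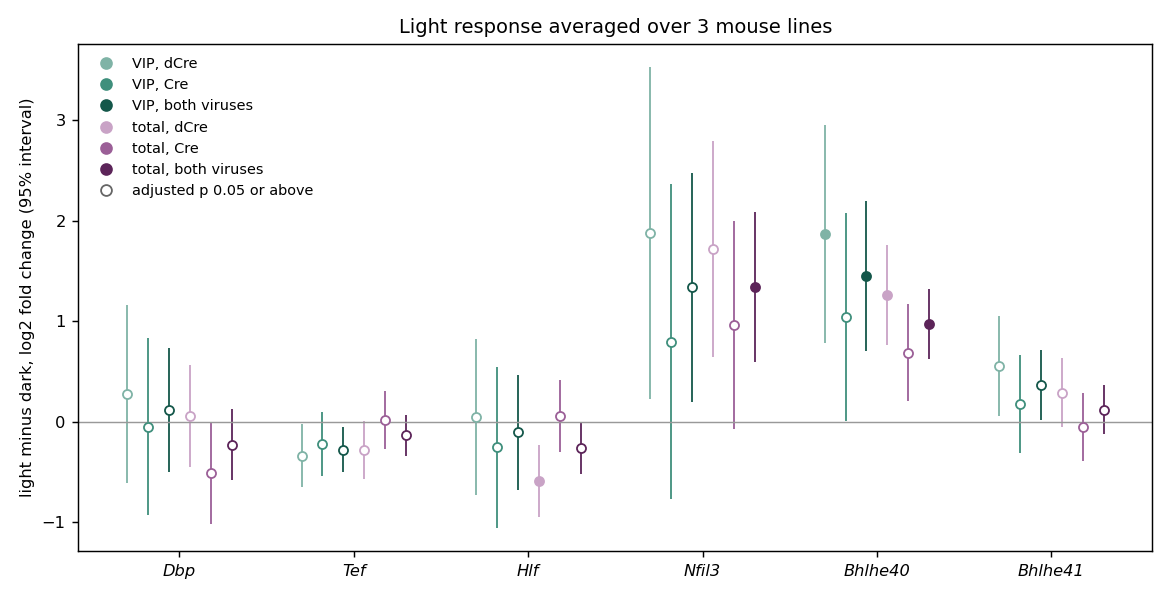
Log2 fold change of light against dark (vertical axis, with its 95% interval) averaged over the 3 lines, for each gene by fraction and virus. Filled points have an adjusted p under 0.05: Bhlhe40 in 4 of 6 comparisons, Nfil3 in total nuclei over both viruses and Hlf in total nuclei of dCre animals.

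In VIP nuclei some markers of other cells were also higher in the light over both viruses: 3 of 10 astrocyte, 3 of 11 oligodendrocyte lineage, 2 of 10 microglial and 1 of 12 excitatory markers passed, with 4 of 7 GABAergic and 2 of 8 VIP interneuron markers. The summed level of the astrocyte markers was 210 to 635 CPM (median 319) in the dark and 233 to 2429 CPM (median 414) in the light. That of the oligodendrocyte lineage markers was 92.7 to 1207 CPM (median 240) and 164 to 2191 CPM (median 308). There 1 GABAergic marker was lower. In total nuclei, 1 of 10 astrocyte, 2 of 12 excitatory and 2 of 8 VIP interneuron markers were higher, 1 excitatory marker was lower, and no microglial or oligodendrocyte marker passed. Without the 4 animals no astrocyte, oligodendrocyte lineage, microglial or excitatory marker passed in VIP nuclei, while 4 GABAergic and 1 VIP interneuron marker did. The part of these markers in the light difference of Bhlhe40 was not tested.

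Single pairs of line and virus gave few calls. In E1 dCre VIP nuclei Bhlhe41 was at 2.21, 11.1 and 28.1 CPM in the 3 dark libraries and at 41.5, 57.8, 34.1, 32.7 and 55.4 CPM in the 5 light libraries. These groups did not overlap, the log2 difference was 1.72 ± 0.47 with an adjusted p of 0.029, and 4.18% of genes were called. In E1 dCre total nuclei Bhlhe40 was at 12.2, 9.04 and 20.2 CPM in the dark and at 48.3, 51.5, 49.1, 39.3 and 63.4 CPM in the light, again without overlap, a difference of 1.87 ± 0.47 with an adjusted p of 0.020 where 3.68% were called. In the same libraries Hlf was at 79.1, 64.4 and 58.4 CPM in the dark and at 35.2, 41.8, 17.5, 37.4 and 28.9 CPM in the light, also without overlap, -1.05 ± 0.32 with an adjusted p of 0.049. Dark replicates 1 and 2 of E1 dCre are among the animals that stand apart. Without them and the E123 pair, the dark group is 1 library in each fraction and its spread is taken from the other groups. Bhlhe41 then differed by 0.66 (adjusted p 0.87), Bhlhe40 by 1.31 (adjusted p 0.94) and Hlf by -0.86 (adjusted p 0.94). With the length index as a covariate, which keeps all libraries, the differences were 1.35 (adjusted p 0.28), 0.78 (adjusted p 0.84) and -0.70 (adjusted p 0.78) in that order. No member was called in the other 5 pairs of line and virus. In VIP nuclei these had 0.0146% (E1 Cre), 0.0486% (E23 dCre), 0.0146% (E23 Cre), 0.00972% (E123 dCre) and 0.00486% (E123 Cre) of genes called, and in total nuclei 0.127%, 0.179%, 0.123%, 0.372% and 0.0566% in that order.

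None of the 6 genes was called for Cre against dCre over lines and housing in VIP nuclei, where 3.74% of genes were called, or in total nuclei, where 0.0283% were. DESeq2 called none in either. An unadjusted p under 0.05 was reached by 1 member in VIP nuclei, Bhlhe41 (0.40 ± 0.18 log2, adjusted p 0.19), and by none in total nuclei. Within E1 dark VIP nuclei, where 9.18% were called, 2 members were higher with Cre. Dbp was at 8.21, 18.8, 16.0, 20.02 and 14.3 CPM with Cre against 3.32, 1.26 and 0.711 CPM with dCre, a log2 difference of 3.21 ± 0.93 with an adjusted p of 0.023. Bhlhe41 was at 63.1, 49.3, 59.7, 28.2 and 21.01 CPM with Cre against 2.21, 11.1 and 28.1 CPM with dCre, 1.74 ± 0.47 with an adjusted p of 0.015. Dbp did not overlap between the groups and Bhlhe41 did. Both contrasts share the E1 dCre dark libraries with the light contrasts above. With the length index as a covariate the Dbp difference was 1.62 (adjusted p 0.85) and the Bhlhe41 difference 1.22 (adjusted p 0.57). Without the 4 animals, 1 dCre library remained, with its spread taken from the other groups, a Dbp difference of 4.41 (adjusted p 0.59) and a Bhlhe41 difference of 0.67 (adjusted p 0.87).

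The differences between responses were tested directly. For the light response of VIP minus that of total nuclei, 0.0872% of 22926 genes were called and no member was. No member was called by DESeq2 or had an unadjusted p under 0.05. The largest was Bhlhe40 at 0.46 ± 0.39 log2, with a 95% interval of -0.30 to 1.22. Nfil3 stood at -0.01 ± 0.88, with an interval of -1.74 to 1.72. Both its SE and its interval are rough, since the SE comes from a change near 0. For the light response of Cre minus that of dCre VIP nuclei, 0.00486% of 20585 genes were called and no member was. There Bhlhe40 stood at -0.82 ± 0.74, with an interval of -2.28 to 0.63, and Nfil3 at -1.08 ± 1.13, and again no member was called by DESeq2 or had an unadjusted p under 0.05. A light call in dCre and none in Cre animals is therefore not shown to be a difference between the viruses.

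Across the 12 group means of a fraction, neighbours in the order of level mostly lay within their spread: for 9 of the 12 orders of gene and fraction, all 11 neighbouring pairs differed by less than a SD, and for Bhlhe40 and Hlf in total nuclei and Tef in VIP nuclei 10 of 11 did. E1 dCre dark was the lowest group in VIP nuclei for Dbp (1.76 ± 1.37 CPM), Hlf (3.81 ± 1.93), Nfil3 (1.04 ± 1.81), Bhlhe40 (2.07 ± 3.59) and Bhlhe41 (13.8 ± 13.1; mean ± SD, n = 3 each). Of the 3 VIP libraries of E1 dCre dark, 2 had no count of Bhlhe40, and likewise of Nfil3. Replicates 1 and 2 of E1 dCre dark and of E123 dCre dark are the 4 animals that stand apart. For Tef the lowest in VIP nuclei was E23 Cre light (57.9 ± 19.8, n = 4). The highest groups in VIP nuclei were E23 dCre light for Bhlhe40 (29.6 ± 15.9), E23 Cre light for Bhlhe41 (48.9 ± 4.43) and Nfil3 (11.4 ± 5.94), E123 dCre dark for Hlf (45.8 ± 25.0) and Tef (116 ± 11), and E1 Cre dark for Dbp (15.5 ± 4.65).

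The core clock genes were compared in the same fits. Of 20 genes listed, all tested, 8 were lower in VIP than in total nuclei and none was higher, with a median of -0.28 log2 against -0.11 over all genes. Those with the smallest p were Per3 (-1.02 ± 0.08), Ciart, a repressor of CLOCK and BMAL1 (-1.26 ± 0.19), Rorb (-1.42 ± 0.21), also a marker of layer IV excitatory neurons, and Arntl, the gene of BMAL1 (-0.62 ± 0.10). After light, over both viruses, Per1 (1.44 ± 0.20), Per2 (1.02 ± 0.22) and Cry2 (0.49 ± 0.13) rose in VIP nuclei and no listed gene fell. In total nuclei Per1 (1.27 ± 0.14), Per2 (1.05 ± 0.16), Cry2 (0.53 ± 0.11) and Cry1 (0.72 ± 0.20) rose and Rorb (-0.68 ± 0.12) fell, Cry1 being named after its values were seen to complete the count. Without the 4 dark dCre animals the same genes passed except Cry2 in VIP nuclei (0.37, adjusted p 0.17) and Cry1 in total nuclei (0.74, adjusted p 0.090). The median light difference of the list was 0.03 in VIP and 0.06 in total nuclei, against 0.02 and -0.03 over all genes. Of the rapid immediate-early list, 16 of 20 genes rose in VIP and 18 of 19 in total nuclei, with medians of 2.29 and 2.21 log2, and none fell. Without the 4 animals 14 of those 16 and all 18 of those 18 passed.

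Relatives of the members by protein family were mostly scarce. Of the C/EBP bZIP genes, 4 of 6 were tested in the joint fit, and Ddit3, a stress-responsive factor, was higher in VIP nuclei (0.41 ± 0.12 log2, not called without the 4 animals at 0.32) while Cebpd was lower (-0.999 ± 0.32). Ddit3 also rose with light in VIP (0.89 ± 0.17) and in total nuclei (0.86 ± 0.18), the only gene of that list called in either. Without the 4 animals its light difference was 0.93 in VIP (adjusted p 0.0089) and 0.74 in total nuclei (adjusted p 0.031). Of the bHLH-Orange relatives of Bhlhe40 and Bhlhe41, 8 of 9 were tested, and Hes5 (-1.94 ± 0.41), Hes1 (-1.62 ± 0.36) and Hey2 (-1.80 ± 0.54), targets of Notch signalling, were lower in VIP nuclei, Hey2 not being called without the 4 animals. All 3 were low, at 2.70, 4.94 and 1.69 CPM in total nuclei, and Hes5 and Hey2, like Cebpd, had groups with no count, where a fitted value depends on the prior count. None of that list was called for light in either fraction.

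By likeness of pattern, measured as Pearson's r over the 24 group means of log2(CPM + 1) after centring each fraction among 11646 protein-coding genes, Nfil3 was nearest to Dusp1 (r = 0.92), Tiparp (0.91) and Dusp6 (0.91), of which Dusp1 and Dusp6 encode phosphatases of MAP kinases. Bhlhe40 was nearest to Sstr2 (0.93), a somatostatin receptor, Chrm1 (0.92), a muscarinic receptor, and Srxn1 (0.90). Bhlhe41 was nearest to AI593442 (0.92), Qars (0.92) and Gtf3a (0.91), Hlf to Adgrl2 (0.89), Gria3 (0.87) and Dpy19l1 (0.85), Dbp to Slc35a1 (0.86), Mrpl24 (0.86) and Fam162a (0.86), and Tef to Ankfy1 (0.82), Exoc6 (0.82) and Ninl (0.81). No member was among the nearest 3 of another member. These values describe group means that share library depth and the long against short gene balance, and they carry no p.

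From library to library within groups, 36 correlations of the members' deviations were computed over 48 libraries or pairs, with permutations within groups, and none passed after Benjamini-Hochberg adjustment. Between the VIP and total libraries with the same number, r was 0.08 to 0.27 for the 6 genes, positive in 6 of 6. The highest value was for Dbp with Nfil3 in VIP nuclei, with Pearson's r = 0.42 (permutation p = 0.015, adjusted 0.27) and Spearman's rho = 0.41 (permutation p = 0.014, adjusted 0.51), and r = 0.32 without the 2 libraries farthest from the median. The deviations also went with the length index, most for Bhlhe40 in total nuclei (r = -0.63 over 48 libraries) and Bhlhe41 in total nuclei (r = -0.47), and for Hlf in VIP nuclei r was 0.05.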

How the data were processed

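Nuclear RNA of 96 libraries was sequenced by the submitters. The deposited table holds raw counts per Ensembl gene, and the submitters' processing notes name cutadapt 1.18, STAR 2.5.3a, HOMER 4.9.1 and the build mm10. The annotation release, the strand setting and the treatment of intronic reads are not given in the sources used here, and each could change the counts of genes with overlapping partners or long introns. Of 55335 identifiers, 181 (0.0225% of counts) had no match in GENCODE M21. Libraries were grouped by line, virus, housing and fraction from the labels.

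Genes were filtered by group with filterByExpr, scaled by TMM and tested with edgeR 4.0.16 (quasi-likelihood, robust) in R 4.3.3, with Benjamini-Hochberg adjustment over all genes tested: 20585 in VIP, 21213 in total and 22926 in joint fits. Groups were fitted without covariates, and contrasts averaged lines. SE is the absolute log2 change over the root of F, and 95% intervals are normal ones around it. CPM values are on TMM sizes of the joint fit, except in the length index, which used library totals. Nothing in the labels beyond a biological replicate number says that libraries came from separate animals, so p-values measure the spread between these samples, although replicates are called animals here. The labels do not say that a number is 1 animal. Same-numbered VIP and total libraries carried the same sex label in 48 of 48 pairs and deviated together in most. Light and dark or Cre and dCre libraries of 1 number did not in most, which does not bear on VIP and total pairs. Numbers were not used as a block in the main tests, so the joint fit treats such pairs as independent libraries. With the block, no member call for VIP against total nuclei changed. No 2 replicates agreed within sampling noise.

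The genes named are the 6 members, the members of the gene lists past the threshold with the smallest p, and the 3 genes nearest each member by pattern. The members and lists were chosen with earlier results of these data known. Alternatives were DESeq2 1.42.0, other scalings, no filter, a replicate block, covariates and left-out animals. In simulated counts for light in VIP nuclei, 50 of 95 genes changed 2-fold and 71 of 98 changed 4-fold were recovered among 19612 genes. There 20 unchanged genes were called too. Like runs called 14 unchanged genes for light in total nuclei, beside 55 and 82 recovered at 2-fold and 4-fold. For VIP against total nuclei they called 30, beside 62 and 79 recovered. In each run unchanged genes were a larger share of the calls than the adjusted p threshold allows. Calls close to that threshold are therefore less certain than their adjusted p. The simulated counts had no effect of line or virus and no animals that stand apart.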

Additional observations from a re-analysis of the deposited data

Results flagged for a closer look

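In 5 of 120 combinations of a gene and a group of 4 or 5 libraries, 1 library lay far from the others by Dixon's 95% limit, which chance passes in about 1 in 20 groups. In total nuclei of E123 Cre light, Bhlhe40 was at 10.99 CPM in replicate 1 against 45.5 to 55.1 in the others. In total nuclei of E23 dCre light, replicate 1 was low for both E-box repressors, with Bhlhe40 at 48.8 CPM against 69.5 to 73.3 and Bhlhe41 at 26.3 CPM against 81.1 to 93.0. In total nuclei of E123 dCre light, Hlf was at 23.1 CPM in replicate 2 against 49.3 to 52.3. In VIP nuclei of E1 Cre light, Nfil3 was at 0.179 CPM in replicate 2 against 3.64 to 4.45. All 5 were the lowest library of a light group.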

How the results depend on the processing

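Of 747 values from 83 member results under 9 alternatives, 685 kept their direction and side of the threshold, 32 lost and 3 gained the threshold, and 27 reversed. These include results not called in the main analysis, which had no call to lose, so the 685 do not measure how stable the calls were. Of the 32 lost, 14 were without the 4 dark dCre animals and 10 with the length index as a covariate. The count of 5 members lower in VIP nuclei held with each of 48 animals left out, where 7788 to 8145 genes were called in either direction. Without the 4 dark dCre animals, members called for light went from 1 to 0 in VIP dCre, 1 to 0 in VIP over both viruses, 2 to 0 in total dCre and 2 to 1 in total nuclei over both viruses, and with the length index as a covariate they went to 0, 0, 0 and 1. With library totals alone, total dCre gave 1. With 1 animal left out the counts ran from 0 to 2 in VIP dCre, 1 to 2 in VIP over both viruses, 1 to 3 in total dCre and 0 to 2 for Cre against dCre in VIP nuclei. Calls over all genes moved widely in such fits. They ran from 646 to 2523 in VIP dCre, 869 to 2273 in VIP over both viruses and 604 to 2491 in total dCre. For Cre against dCre in VIP nuclei they reached 2310, against 769 with all libraries, and fell below 769 in other fits. The moves in member counts are thus not shown to be particular to the 6 genes. Without the 4 animals light calls over all genes also fell in the 4 light comparisons above, so the loss was not limited to the 6 genes. They went from 1290 to 46 in VIP dCre and from 1234 to 345 in VIP over both viruses. In total dCre they went from 1207 to 157, and in total nuclei over both viruses from 1651 to 757. With the length index as a covariate they were 148, 547, 420 and 1099 in that order. The cause of these moves was not tested.

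With the replicate number as a block, members called went to 2 in VIP over both viruses, where Nfil3 passed (2.48, adjusted p 0.049), and to 1 in total dCre, where Hlf was lost (-0.65, adjusted p 0.059). Dbp for Cre against dCre in E1 dark VIP nuclei (3.27, adjusted p 0.080) and Hlf for light in E1 dCre total nuclei (-1.15, adjusted p 0.12) were lost as well, and no member call for VIP against total nuclei changed. Same-numbered VIP and total libraries deviated together (r over 0.1) in 33 of 48 pairs, light and dark ones in 15 of 44 and Cre and dCre ones in 19 of 44. The block reversed Dbp in light VIP dCre (-0.10), in light VIP over both viruses (-0.10) and in Cre minus dCre light (0.0078), Tef in light total Cre (-0.026) and Nfil3 in VIP minus total light (0.38).

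None of the reversed values was called in the main analysis. The length index as a covariate reversed Dbp in light VIP dCre (-0.34), light VIP over both viruses (-0.28), Cre minus dCre light (0.13), light total dCre (-0.26) and Cre against dCre in total (-0.17), Nfil3 in Cre minus dCre light (0.41) and Cre against dCre in VIP (-0.43), Bhlhe40 in Cre against dCre in VIP (-0.13), and Bhlhe41 in light total over both viruses (-0.050) and Cre against dCre in total (-0.072). Leaving out the 4 animals reversed Bhlhe41 in Cre minus dCre light (0.0073), light total dCre (-0.012), light total over both viruses (-0.037) and Cre against dCre in total (-0.11), Bhlhe40 in Cre against dCre in VIP (-0.035), Dbp in light total dCre (-0.23) and Cre against dCre in total (-0.12), and Nfil3 in VIP minus total light (0.84). That last value, -0.01 in the main analysis, was 0.0048 with DESeq2 size factors, 0.054 with library totals, 0.0067 with no filter and 0.0086 with DESeq2.

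With 1 animal left out, Dbp ran from -0.32 to 0.55 in light VIP dCre, -0.31 to 0.11 in light VIP Cre, -0.18 to 0.25 in light VIP over both viruses, -0.60 to 0.27 in Cre minus dCre light, -0.089 to 0.29 in light total dCre and -0.024 to 0.13 in Cre against dCre in total. Hlf ran from -0.074 to 0.19 in light VIP dCre and -0.024 to 0.12 in light total Cre, Tef from -0.086 to 0.088 in light total Cre, and Bhlhe41 from -0.15 to 0.0067 in light total Cre and -0.0096 to 0.11 in Cre against dCre in total. Nfil3 ran from -2.85 to 0.073 in Cre minus dCre light and -0.20 to 0.89 in VIP minus total light.

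Counts over all genes moved more. DESeq2 gave 2044 against 1290 for light VIP dCre and 1813 against 1207 for light total dCre, and the length index as a covariate gave 148 and 420. Cre against dCre in VIP nuclei went from 769 to 3 without the 4 animals and to 1443 with no filter, and in total nuclei from 6 to 284 with no filter. With library totals alone, genes called higher were 80.4% of calls against 63.3% for light VIP dCre, and 28.7% against 41.7% for VIP against total, whose median over all genes moved from -0.11 to -0.24. The lowest median depth of a member was that of Nfil3, 20.5 counts per VIP library.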
